A study of Mus musculus with 14 samples.

Results

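Alternative activation is the state that interleukin-4 (IL-4) and IL-13 induce in macrophages. Here 9 genes linked with it were followed: 7 widely used markers (Mrc1, Chil3, Clec10a, Mgl2, Retnla, Tgm2 and Cd163) and 2 receptor chains (Il4ra and Il13ra1). They were chosen by name, and a probe was taken as theirs when its RefSeq accession belongs to the gene. That gave 11 probes for 9 of the 21356 genes with a symbol on the array, with 2 probes each for Il4ra and Tgm2.

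Macrophages had been grown with M-CSF for 1 week from the marrow of 8-week-old female C57BL/6 mice. Every animal carried Cre recombinase under the LysM promoter ("LysM-Double-Cre"), which is active in myeloid cells, so the cells without the TFEB transgene carried Cre as well. TFEB switches on genes for building lysosomes and for autophagy. The groups were transgenic cells with tumour material (TFEB transgene+, 3 arrays of 2 replicates), wild-type cells with tumour material (TFEB transgene-, 4 arrays of 3 replicates), transgenic control cells (3 arrays of 3 replicates) and wild-type control cells (4 arrays of 3 replicates). Tumour material means medium conditioned by EO771 mouse mammary tumour cells plus tumour lysate, given for 24 h, and control cells stayed in plain DMEM. Each RNA was read on a one-colour microarray. Labels call the replicates biological, and replicate 3 has a repeat array in 3 groups. Levels below average such a pair as 1 sample. The tests keep both arrays and tie them by a random block, whose estimated correlation was 0.058, so the pair weighed almost as much as separate samples. Calls of named genes that are lost when the pair is averaged are given as lost, but Tfeb's call was not checked in this way. Transgenic tumour replicate 1 is not analysed here.

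IL-4 binds a receptor made of IL-4Rα (Il4ra) with either the common γ chain (Il2rg) or IL-13Rα1 (Il13ra1), and IL-13 binds the pair with IL-13Rα1. Janus kinases on these chains phosphorylate STAT6, which enters the nucleus and switches on genes such as Retnla, Chil3, Mrc1 and the galactose-type lectins. In tumours, macrophages with these genes are often described as supporting growth and repair, although single markers also respond to other signals.

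The 250 bases before the start of 5 of these genes are given because they stand for the different behaviours seen below: Mgl2, Il4ra and Il13ra1 were higher with tumour material, Chil3 was lower, and Retnla lay below background. They come from RefSeq, build GRCm38.p6, which holds 7 of the 9 genes in the table used here, and are written 5′ to 3′ along the gene. Capitals mark a letter pattern of a STAT site, TTCNNNNGAA or TTCNNNGAA, or of the C/EBP core, TTGCNNAA. Both strands were searched.
Mgl2, chr11:70130107-70130356, plus strand: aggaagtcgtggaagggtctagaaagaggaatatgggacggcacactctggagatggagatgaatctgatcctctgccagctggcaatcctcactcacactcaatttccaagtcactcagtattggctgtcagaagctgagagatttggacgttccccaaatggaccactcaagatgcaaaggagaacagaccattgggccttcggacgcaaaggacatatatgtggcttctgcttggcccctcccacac
Il4ra, chr7:125552021-125552270, plus strand: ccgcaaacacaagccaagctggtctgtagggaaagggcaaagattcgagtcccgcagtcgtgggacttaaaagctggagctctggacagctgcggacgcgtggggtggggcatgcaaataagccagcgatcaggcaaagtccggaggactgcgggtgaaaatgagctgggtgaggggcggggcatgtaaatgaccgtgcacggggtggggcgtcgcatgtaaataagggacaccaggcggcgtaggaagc
Il13ra1, chrX:36111858-36112107, plus strand: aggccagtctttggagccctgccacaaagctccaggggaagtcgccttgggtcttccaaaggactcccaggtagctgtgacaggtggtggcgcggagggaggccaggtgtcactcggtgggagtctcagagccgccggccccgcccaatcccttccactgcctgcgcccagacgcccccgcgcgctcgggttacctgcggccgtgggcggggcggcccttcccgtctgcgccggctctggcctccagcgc
Chil3, chr3:106167565-106167814, minus strand: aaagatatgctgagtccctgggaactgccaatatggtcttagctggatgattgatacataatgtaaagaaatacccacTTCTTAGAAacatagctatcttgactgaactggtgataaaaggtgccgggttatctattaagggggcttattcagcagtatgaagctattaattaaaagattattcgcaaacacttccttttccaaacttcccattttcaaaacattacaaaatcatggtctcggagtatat
Retnla, chr16:48842359-48842608, plus strand: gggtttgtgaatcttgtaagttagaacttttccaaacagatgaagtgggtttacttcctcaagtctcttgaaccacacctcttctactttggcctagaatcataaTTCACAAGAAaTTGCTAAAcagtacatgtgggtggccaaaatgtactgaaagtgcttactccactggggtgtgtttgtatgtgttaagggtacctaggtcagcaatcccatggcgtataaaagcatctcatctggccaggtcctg
TTCNNNNGAA, the spacing usually preferred by STAT6, was present in the Retnla window, from base −145 to −136 with the gene's first base counted as 0. It occurs in 5.85% of 32851 mouse windows of the same length. TTCNNNGAA was present in the Chil3 window, from −172 to −164, and occurs in 7.02% of all windows. TTGCNNAA was present in the Retnla window, from −134 to −127, without overlap with the STAT pattern, and occurs in 9.56%. The E-box letters CACGTG, the core of the element that TFEB binds, occur in 6.02% of all windows and in 0 of the 7 member windows. Such matches describe letters only.

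Across arrays, 35.5% to 40.2% of spots lay well above background and 0 were saturated. Arrays within a group correlated at 0.977 to 0.993, apart from transgenic control replicate 1, whose group ran from 0.955 to 0.98. The arrays came from 2 slides. All transgenic tumour arrays lay on slide 2, with 1 array of each other group, and so a slide term is part of every test. The wild-type arrays on slide 2 are the repeat arrays of replicate 3, whose first arrays lay on slide 1. Wild-type values within slide 1 and within slide 2 therefore share that replicate and are not independent. With tumour material the 1 Tfeb probe averaged 0.20 ± 0.10 in 2 transgenic replicates and −0.43 ± 0.06 in 3 wild-type replicates (SD), a fitted difference of 0.71 (adjusted p = 0.0255). Whether this call holds with repeat arrays averaged or without single replicates was not checked. In control medium its mean was 1.44 ± 0.28 in transgenic and 1.15 ± 0.08 in wild-type cells (SD, n = 3 each), a fitted difference of 0.31 that did not pass (adjusted p = 0.17). The labels do not give the species of the transgene, so whether this probe reads it is not known. Of 7 macrophage markers, 6 were well above background, with Adgre1, Csf1r and Cd68 among the brightest, while Lyz2, the gene of the LysM promoter, was above background on 4 of 14 arrays. Of 5 mammary epithelial markers, 0 were above background on all arrays of any group.

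Every level below is the log2 of a probe's signal over its array's 75th percentile. Every difference is in log2 units from 1 limma fit over 20199 probes, with Benjamini-Hochberg adjusted p, and a change is called when that p is under 0.05. Levels of different probes cannot be set against each other. Of the 11 probes, 8 were well above background on all 14 arrays. Retnla and Cd163 were above it on 0 of 14 arrays, and the second Il4ra probe crossed it with tumour material.

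**Figure D1:**
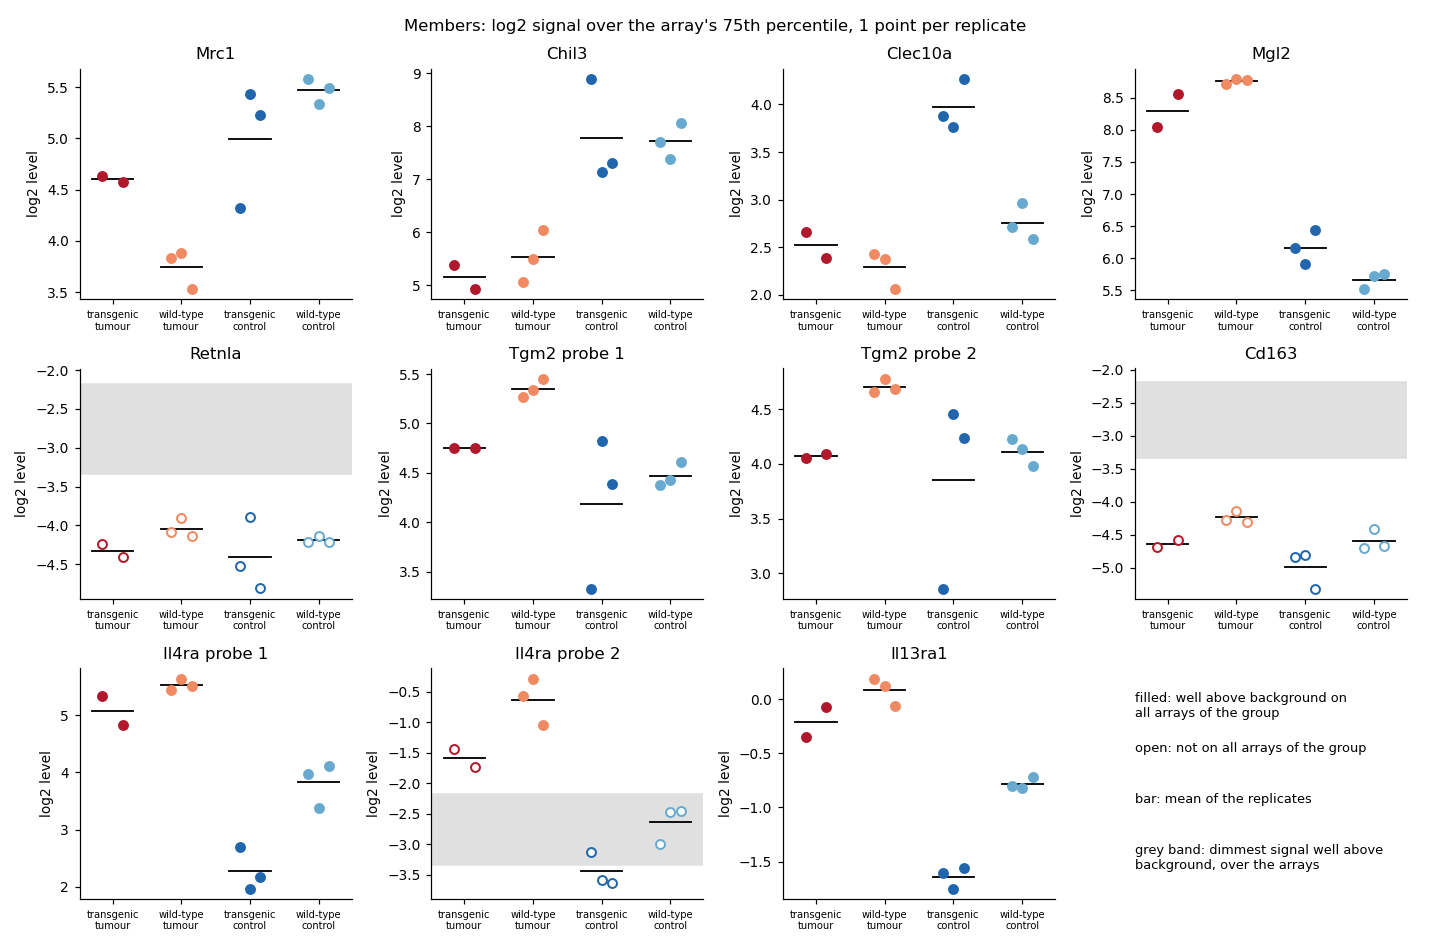
Log2 level (signal over the array's 75th percentile) of each of the 11 probes, 1 point per replicate, in transgenic tumour, wild-type tumour, transgenic control and wild-type control cells; bars are means, and open points mark groups not above background on all arrays. Mgl2, Il4ra and Il13ra1 lie higher with tumour material in both genotypes, Chil3 lies lower, and Retnla and Cd163 stay below the grey band of the dimmest measurable signals.

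Both receptor chains rose with tumour material in both genotypes and were lower in transgenic than in wild-type cells when no tumour material was present. Il4ra, the chain shared by every IL-4 and IL-13 signalling receptor, was read by a bright probe (A_55_P2017789) and a dim one (A_55_P1966189). On the bright probe it stood at 5.34 and 4.82 in transgenic tumour replicates 2 and 3, and at 5.43, 5.63 and 5.51 in wild-type tumour replicates. In control medium it stood at 2.69, 1.97 and 2.18 in transgenic replicates and at 3.97, 3.38 and 4.12 in wild-type replicates. The 2 tumour groups lay above both control groups without overlap, and the transgenic control replicates were the lowest of all.

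With tumour material the bright Il4ra probe rose 6.54-fold in transgenic cells (log2 difference 2.71, SE 0.287, adjusted p = 3.96e-05) and 3.1-fold in wild-type cells (1.63, SE 0.219, adjusted p = 0.000114). Within slide 2 the values were 2.90 and 1.48, and within slide 1 the wild-type value was 1.68. In control medium it was 3.06-fold lower in transgenic cells (−1.61, SE 0.235, adjusted p = 0.00167, −1.52 within slide 1 and −1.86 within slide 2). With tumour material the difference between genotypes was −0.54 (SE 0.284, adjusted p = 0.347) and did not pass. In bulk RNA, fewer cells that express a gene and less RNA per cell cannot be told apart, here and for every gene below.

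Il4ra's dim probe was above background on 2 of 3 transgenic tumour arrays and 4 of 4 wild-type tumour arrays, against 0 of 3 and 0 of 4 control arrays. Its folds are therefore lower bounds: at least 3.05-fold higher with tumour material in transgenic cells (adjusted p = 0.000409) and at least 3.55-fold higher in wild-type cells (adjusted p = 3.88e-05). It entered the test only through the wild-type tumour group, where it is high, so its rise adds nothing to that of the bright probe. In control medium both genotypes lay below background on this probe, and its difference there (adjusted p = 0.0494) is no measured fold. That difference passed in 4 of 11 fits without 1 replicate and in 0 of 11 other alternatives.

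Il13ra1 binds IL-13 and joins IL-4Rα in the second receptor type, and it moved with Il4ra. Its probe (A_52_P552194) stood at −0.35 and −0.07 in transgenic tumour replicates and at 0.19, 0.12 and −0.07 in wild-type tumour replicates. The control values were −1.61, −1.75 and −1.56 in transgenic replicates and −0.80, −0.82 and −0.72 in wild-type replicates. Tumour and control replicates of each genotype were separate, and so were the genotypes in control medium. It rose 2.83-fold with tumour material in transgenic cells (1.5, SE 0.154, adjusted p = 3.15e-05, 1.35 within slide 2) and 1.76-fold in wild-type cells (0.82, SE 0.118, adjusted p = 0.000194, 0.88 within slide 1 and 0.61 within slide 2). In control medium it was 1.82-fold lower in transgenic cells (−0.87, SE 0.127, adjusted p = 0.00168). With tumour material the genotypes differed by −0.18 (SE 0.153, adjusted p = 0.574). Across the 11 replicates the 2 receptor chains correlated at r = 0.97, a description over points that share groups and slides.

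The lower receptor levels of transgenic control cells stood beside lower macrophage markers and higher levels of some neutrophil markers. The mean of the 6 measured markers was 6.38 to 6.42 in transgenic and 6.76 to 6.96 in wild-type control replicates. Of these markers, Itgam (−1.38, adjusted p = 0.00138) and Cd14 (−0.72, adjusted p = 0.0108) fell in transgenic control cells, and 0 rose. Of 8 neutrophil markers, 3 were higher there and 0 lower. Between the genotypes in control medium, 3.38% of all probes were called higher and 5.03% lower. Means of Ltf (4.35 against 5.28), S100a8 (5.38 against 5.63) and S100a9 (7.20 against 7.29) were lower in transgenic than in wild-type control cells. For Ngp and Camp the difference turned negative without transgenic control replicate 1. All 8 neutrophil markers averaged 5.89, 3.75 and 3.95 in transgenic control replicates 1, 2 and 3, and 3.81 to 3.85 in wild-type ones. Mpo averaged 4.91 in transgenic and 2.35 in wild-type control replicates (2.63, adjusted p = 0.00145), Elane 4.03 and 2.25 (1.74, adjusted p = 0.0063), and Ctsg 2.98 and 0.919 (2.10, adjusted p = 0.00257). Their means were thus higher in the transgenic control cells for all 3, and each call held without any single replicate. Prg2 of eosinophils and mast cells (1.03, adjusted p = 0.036) and Cd4 of T cells (1.49, adjusted p = 0.0205) were also higher, and both calls were lost with repeat arrays averaged (adjusted p = 0.0696 and 0.0743). The other measured markers of these cells were not called and had lower means in transgenic than in wild-type control cells. They were Siglecf (−1.31 against −1.01), Cpa3 (−1.41 against −1.11, with −2.86 in transgenic control replicate 1) and Cd3e (1.22 against 1.60). With tumour material Itgam, Adgre1 and Fcgr1 rose in both genotypes, and Cd14 in wild-type cells (0.66, adjusted p = 0.00232). Cd14 did not pass without wild-type control replicate 3 in the genotype comparison (adjusted p = 0.137) or without wild-type tumour replicate 3 in the wild-type response (adjusted p = 0.0615). The part of these markers in the control-medium differences of the receptor chains and of Clec10a was not tested.

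Of 13 genes listed for IL-4 receptor signalling, from the cytokines to the feedback inhibitors, 10 were tested. The genes for feedback inhibitors moved most. Socs1, which blocks Janus kinases, averaged 6.42 and 7.01 in transgenic and wild-type tumour cells, against 1.70 and 1.66 in control cells. It rose by 4.73 (SE 0.13, adjusted p = 9.04e-10) in transgenic and 5.32 (SE 0.10, adjusted p = 9.91e-12) in wild-type cells. Cish, another STAT-induced inhibitor, rose by 6.39 (SE 0.35, adjusted p = 2.43e-07) and 4.51 (SE 0.27, adjusted p = 1.9e-07). In transgenic control cells Cish was above background on 2 of 3 arrays, so the size of its rise there is uncertain. Both inhibitors are also induced by cytokines other than IL-4.

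Of the kinases, Jak2 rose by 1.26 in transgenic (adjusted p = 0.00749) and 1.37 in wild-type cells (adjusted p = 0.000444). Jak1 rose by 0.44 in transgenic cells (adjusted p = 0.0243) and had 0.25 in wild-type cells (adjusted p = 0.0549). Il2rg, the common γ chain, rose by 1.06 in transgenic cells (adjusted p = 0.00168), with 0.21 in wild-type cells (adjusted p = 0.276). With repeat arrays averaged, Jak1 did not pass in transgenic cells (adjusted p = 0.0906). Of the 11 alternatives other than leaving out 1 replicate, Jak1 passed there in 5. Without either transgenic control replicate 3 or transgenic tumour replicate 3, Jak1 and Jak2 no longer passed in transgenic cells, at an adjusted p of up to 0.202 and 0.114 over all alternatives.

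Stat6 itself had −0.31 in transgenic (adjusted p = 0.171) and −0.01 in wild-type cells (adjusted p = 0.941). Jak3, Tyk2, the adaptor gene Irs2 and the phosphatase gene Ptpn6 lay between −0.27 and 0.08 in both genotypes and did not pass. The cytokine genes Il4 and Il13 and the decoy receptor gene Il13ra2 were above background on 0 of 14 arrays. In all, 5 of 10 rose and 0 fell in transgenic cells, where 14.9% of all probes were called higher and 10.0% lower. In wild-type cells 3 of 10 rose and 0 fell, where 22.2% of all probes were called higher and 17.2% lower. The medians were 0.26 and 0.15, against 0.06 and 0.03 over all probes.

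Between genotypes, Cish was lower in transgenic control cells (−1.18, SE 0.29, adjusted p = 0.0273) and Socs1 was lower in transgenic cells with tumour material (−0.58, SE 0.13, adjusted p = 0.0261). These were the 2 genotype calls in this list, 1 of 10 in each medium, against 8.42% of all probes in control medium and 4.28% with tumour material. Both were lost when repeat arrays were averaged (adjusted p = 0.0926 for Cish and 0.212 for Socs1). Cish's call was lost without any of wild-type control replicates 1 or 3, wild-type tumour replicate 3, transgenic control replicates 2 or 3 or transgenic tumour replicate 3, with an adjusted p of up to 0.189. Its replicates also overlapped between the genotypes in control medium, where 2 of 3 transgenic arrays were above background. For Socs1, leaving out either transgenic tumour replicate, wild-type tumour replicate 1 or 3, or wild-type control replicate 3 ended the call (adjusted p up to 0.316).

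**Figure D2:**
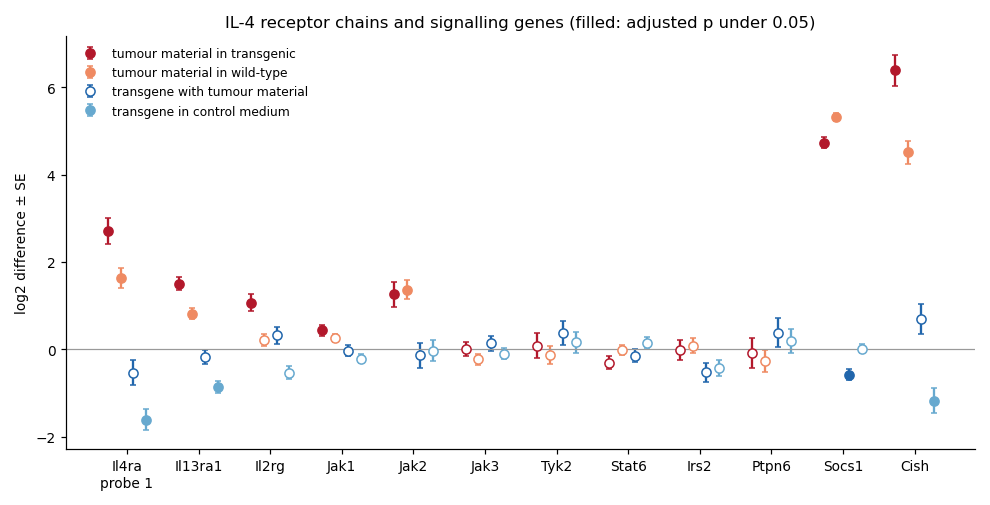
Log2 difference ± SE for Il4ra, Il13ra1 and the 10 tested signalling genes, with tumour material in transgenic and wild-type cells and for the transgene with tumour material and in control medium; filled points have an adjusted p under 0.05. Socs1 and Cish show the largest rises, Il4ra and Il13ra1 rise in both genotypes, and Stat6 stays near 0.

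The lectin receptors split. Mgl2 rose strongly with tumour material in both genotypes, Mrc1 fell in wild-type cells, and Clec10a fell in both genotypes from a level that was higher in transgenic control cells. Mgl2 and Clec10a encode the 2 mouse galactose-type lectins and are neighbouring genes, and Mrc1 encodes the mannose receptor, an endocytic lectin.

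Mgl2 (probe A_55_P2128499) stood at 8.04 and 8.56 in transgenic tumour replicates and at 8.71, 8.79 and 8.78 in wild-type tumour replicates. In control medium the values were 6.16, 5.90 and 6.43 in transgenic and 5.52, 5.73 and 5.75 in wild-type replicates. Every tumour replicate lay above every control replicate, and the genotypes were separate in each medium, in opposite order. Mgl2 rose 4.26-fold in transgenic cells (2.09, SE 0.181, adjusted p = 8.4e-06, 1.87 within slide 2) and 8.45-fold in wild-type cells (3.08, SE 0.138, adjusted p = 1.73e-08, 3.12 within slide 1 and 2.95 within slide 2). Of the 9 tested probes it had the largest change in wild-type cells. Neither genotype difference passed: it was −0.52 with tumour material (SE 0.179, adjusted p = 0.139), while control medium gave 0.46 (SE 0.148, adjusted p = 0.0777). Without transgenic tumour replicate 2 the value in control medium had an adjusted p of 0.0381.

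Clec10a (probe A_55_P2045055) was measured at 2.66 and 2.39 in transgenic tumour replicates and at 2.43, 2.38 and 2.06 in wild-type tumour replicates. Control values were 3.87, 3.77 and 4.27 in transgenic and 2.71, 2.96 and 2.59 in wild-type replicates. The transgenic control replicates were the highest of the 4 groups, and the 2 tumour groups overlapped. In control medium Clec10a was 2.39-fold higher in transgenic cells (1.26, SE 0.165, adjusted p = 0.000855, 1.04 within slide 1 and 1.77 within slide 2). With tumour material it fell 2.75-fold in transgenic cells (−1.46, SE 0.201, adjusted p = 0.000272, −1.74 within slide 2). In wild-type cells it fell 1.39-fold (−0.48, SE 0.154, adjusted p = 0.0272). That smaller call was lost with repeat arrays averaged (adjusted p = 0.0824), with normexp background correction (0.0752) and without the filter on dim probes (0.0781). It was also lost without any of wild-type control replicates 1 or 2, wild-type tumour replicate 3 or transgenic tumour replicate 3, with an adjusted p of up to 0.309. With tumour material the genotypes differed by 0.28 (SE 0.199, adjusted p = 0.504).

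For Mrc1 (probe A_55_P1988108), transgenic tumour replicates stood at 4.64 and 4.58 and wild-type tumour replicates at 3.84, 3.88 and 3.53. Transgenic control replicates stood at 4.32, 5.44 and 5.23 and wild-type control replicates at 5.58, 5.34 and 5.50. Wild-type tumour replicates were the lowest, and transgenic control replicate 1 lay below both transgenic tumour replicates while its 2 companions lay above them. In wild-type cells Mrc1 fell 3.42-fold (−1.78, SE 0.218, adjusted p = 5.64e-05, −1.73 within slide 1 and −1.93 within slide 2). In transgenic cells the difference was −0.40 (SE 0.285, adjusted p = 0.348), and −0.65 (adjusted p = 0.00878) without transgenic control replicate 1.

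Mrc1 was 0.90 higher in transgenic than in wild-type cells with tumour material, which did not pass after adjustment (SE 0.282, adjusted p = 0.109, unadjusted p = 0.0081, 1.10 within slide 2). That difference was 1.05 (adjusted p = 0.00114) without transgenic control replicate 1, which also carries part of the slide term. In control medium the genotypes differed by −0.48 (SE 0.234, adjusted p = 0.232), and by −0.11 (adjusted p = 0.663) without that replicate.

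Of the secreted markers, Chil3 fell and Retnla could not be measured. Chil3 encodes Ym1, a chitinase-like protein without enzyme activity that granulocyte precursors make as well as macrophages. Its probe (A_51_P167292) stood at 5.39 and 4.94 in transgenic tumour replicates and at 5.06, 5.49 and 6.04 in wild-type tumour replicates. Control replicates stood at 8.89, 7.13 and 7.31 in transgenic and at 7.70, 7.39 and 8.06 in wild-type cells. All 5 tumour replicates lay below all 6 control replicates, and the genotypes overlapped in both media. Chil3 fell 6.48-fold in transgenic cells (−2.70, SE 0.486, adjusted p = 0.00174, −2.15 within slide 2) and 4.44-fold in wild-type cells (−2.15, SE 0.371, adjusted p = 0.000731, −2.18 within slide 1 and −2.06 within slide 2). The transgene's differences were −0.56 with tumour material (SE 0.481, adjusted p = 0.581) and −0.02 in control medium (SE 0.399, adjusted p = 0.984).

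Neutrophil markers moved in the same direction as Chil3. All 8 were measured, and 8 fell in transgenic cells and 7 in wild-type cells with tumour material, with 0 rises in either, against 10.0% and 17.2% of all probes called lower. With repeat arrays averaged, Elane (adjusted p = 0.108) and Camp (0.101) did not pass in transgenic cells. Their mean level was 0.48 to 0.65 in transgenic tumour and 0.47 to 0.97 in wild-type tumour replicates, against 3.75 to 5.89 in transgenic and 3.81 to 3.85 in wild-type control replicates. Ltf fell by 5.52 in transgenic and by 6.79 in wild-type cells, and Mpo by 5.61 and by 3.93. In wild-type tumour cells Ltf was above background on 3 of 4 arrays, so the size of its fall there is uncertain. Ngp fell below background with tumour material, at least 30.3-fold lower in wild-type cells. Entry to the test came only through the control groups, where Ngp is high, so its fall in the counts above was fixed. Its transgenic control replicates stood at 4.46, 1.59 and 1.46, so a limit for transgenic cells would rest on replicate 1 and is not given. Transgenic control replicate 1 had the highest Chil3 level (8.89) and the highest mean of the neutrophil markers (5.89). The part of these markers in the Chil3 result was not tested. Across 10966 other genes, those whose levels followed Chil3 most closely over the 11 replicates were Lrg1, Mrgpra2a and Pi16, with r from 0.979 to 0.985.

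**Figure D3:**
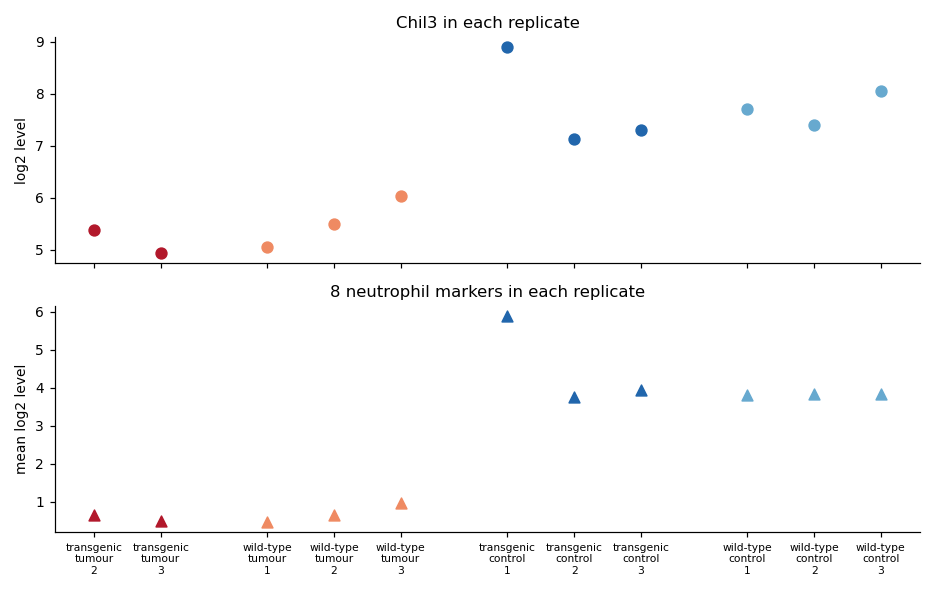
Upper panel, log2 level of Chil3; lower panel, mean log2 level of 8 neutrophil markers; 1 point per replicate in transgenic tumour, wild-type tumour, transgenic control and wild-type control cells. Both are low in all 5 tumour replicates and highest in transgenic control replicate 1.

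Retnla encodes RELMα, a secreted protein strongly induced by IL-4, and Cd163 encodes the scavenger receptor for haemoglobin bound to haptoglobin. Retnla's probe (A_51_P257951) ran from −4.81 to −3.89 over the arrays and Cd163's (A_55_P2289819) from −5.32 to −4.15. The dimmest signal well above background ran from −3.34 to −2.18, so neither gene was measurable in any group, and no fold is given. With the filter on dim probes lifted, neither passed in any of the 5 contrasts, with adjusted p from 0.086 to 0.954.

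Tgm2 encodes transglutaminase 2, an enzyme that crosslinks proteins and a marker of alternative activation in both mouse and human macrophages. Its brighter probe (A_55_P2034110) stood at 4.76 and 4.75 in transgenic tumour replicates and at 5.27, 5.34 and 5.45 in wild-type tumour replicates. Control values were 3.33, 4.82 and 4.39 in transgenic and 4.37, 4.43 and 4.61 in wild-type replicates. Wild-type tumour replicates were the highest, and transgenic control replicate 1 was the lowest. In wild-type cells Tgm2 rose 1.83-fold on this probe (0.87, SE 0.24, adjusted p = 0.0127, 0.87 within each slide), while the second probe (A_52_P220879) had 0.62 (SE 0.271, adjusted p = 0.091). The first call was lost with repeat arrays averaged (adjusted p = 0.0576), and neither slide alone passed (adjusted p = 0.0828 within slide 1 and 0.111 within slide 2). It also did not hold when wild-type tumour replicate 3 (adjusted p = 0.0857) or wild-type control replicate 3 (adjusted p = 0.053) was left out, and the second probe passed without transgenic control replicate 1 (0.63, adjusted p = 4.86e-05) or 2 (0.63, adjusted p = 0.0269).

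In transgenic cells the probes had 0.45 (SE 0.314, adjusted p = 0.341) and 0.17 (SE 0.355, adjusted p = 0.776) with tumour material. Both values turn on single control libraries. Without transgenic control replicate 1 they were 0.14 (adjusted p = 0.519) and −0.19 (adjusted p = 0.225), and without replicate 2 the brighter probe had 0.69 (adjusted p = 0.0254). With tumour material both probes were lower in transgenic than in wild-type cells without overlap of the replicates, at −0.77 (adjusted p = 0.215) and −0.69 (adjusted p = 0.325), which did not pass. Leaving out transgenic control replicate 1 gave −0.64 (adjusted p = 0.0137) and −0.51 (adjusted p = 0.00868). Plain medium gave −0.34 (adjusted p = 0.46) and −0.24 (adjusted p = 0.666). There both signs turned without transgenic control replicate 1, at 0.09 (adjusted p = 0.708) and 0.31 (adjusted p = 0.0559), while without replicate 2 the brighter probe had −0.74 (adjusted p = 0.0305).

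Set together, tumour material changed most measured members in both genotypes, in both directions. In transgenic cells 6 of 9 tested probes passed, against 25.0% of all probes: 4 were higher and 2 lower, against 14.9% and 10.0% of all probes. In wild-type cells 8 of 9 passed, against 39.3%: 5 were higher and 3 lower, against 22.2% and 17.2%. The members' median difference was 0.45 in transgenic and 0.82 in wild-type cells, against 0.06 and 0.03 over all probes. Replicates of the 2 media did not overlap for 6 probes in transgenic cells and 9 in wild-type cells, where 50.2% and 57.6% of all probes were separate. Il4ra, Il13ra1 and Mgl2 were higher and Chil3 and Clec10a lower in both genotypes. With repeat arrays averaged, 6 probes passed in each genotype. Lost in wild-type cells were Clec10a (adjusted p = 0.0824) and the brighter Tgm2 probe (adjusted p = 0.0576). The dim Il4ra probe is in these counts, although its entry to the test fixed its rise.

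Calls between the genotypes came from control medium. With tumour material 0 of 9 probes passed, against 4.28% of all probes, and 4 of 9 had an unadjusted p under 0.05, against 18.2% of all probes. Replicates of the genotypes were separate for 7 of 9 probes there, with 47.1% of all probes separate between groups of 2 and 3 replicates. The dim Il4ra probe is in both of these member counts. It entered the test only through the wild-type tumour group, which favours a lower transgenic value. In control medium 4 of 9 passed, against 8.42% of all probes, and 5 of 9 had separate replicates, against 21.4%. Clec10a was higher, 1 of 9 against 3.38% of all probes. Il13ra1 and both Il4ra probes passed as lower, 3 of 9 against 5.03%, but the dim Il4ra probe lay below background in both groups and measures no difference. With repeat arrays averaged it did not pass (adjusted p = 0.101), which left 3 calls. The median difference was −0.54 with tumour material and −0.34 in control medium, against 0.00 and −0.03 over all probes. These medians are the values of the bright Il4ra probe and of the brighter Tgm2 probe, neither of which passed there. Both medians count each probe of Il4ra and Tgm2, the dim one included.

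**Figure D4:**
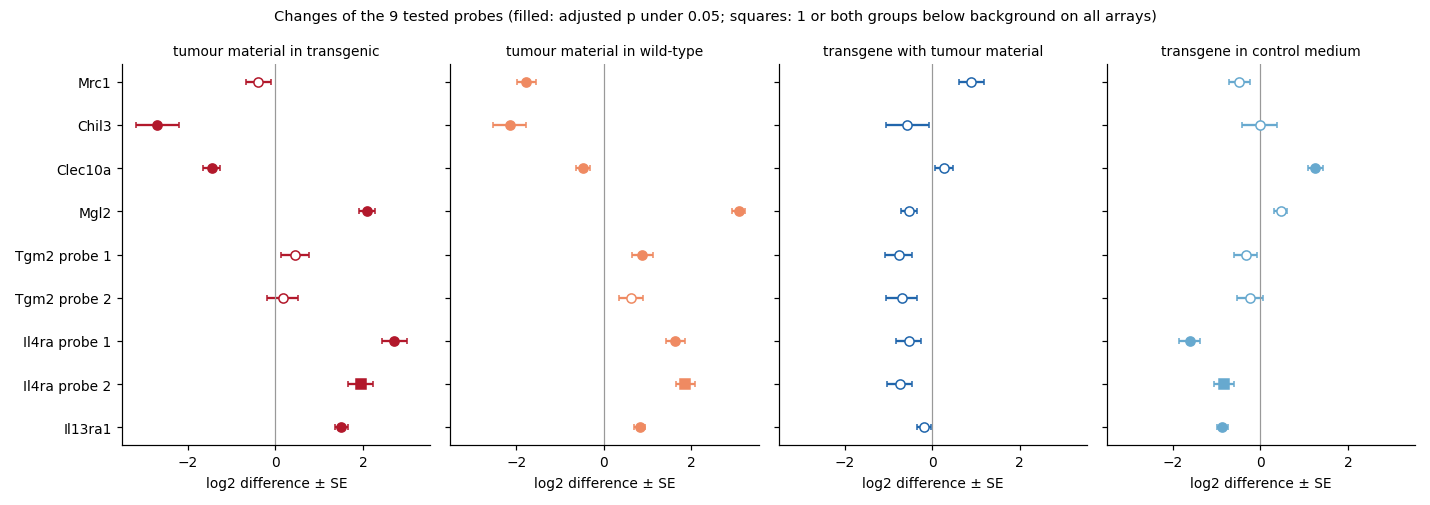
Log2 difference ± SE of the 9 tested probes for tumour material in transgenic and wild-type cells and for the transgene with tumour material and in control medium. Filled symbols have an adjusted p under 0.05, and squares mark comparisons with 1 or both groups below background on all arrays; the panel for the transgene with tumour material has 0 filled symbols, against 4 of 9 in control medium, 1 of them the dim Il4ra probe.

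Whether the response to tumour material differed by genotype was tested as the difference of the responses, transgenic minus wild-type. On all arrays 0 of 9 probes passed, against 1.66% of all probes, and 5 of 9 had an unadjusted p under 0.05, against 12.0% of all probes. The closest was Mgl2, whose rise was smaller in transgenic cells by 0.99 (−0.99, SE 0.227, adjusted p = 0.0552). Clec10a's fall was deeper (−0.98, SE 0.253, adjusted p = 0.093) and Mrc1's shallower (1.38, SE 0.358, adjusted p = 0.0947) in transgenic cells. The bright Il4ra probe had 1.08 (SE 0.361, adjusted p = 0.211), Il13ra1 0.68 (SE 0.194, adjusted p = 0.126), and Chil3 −0.54 (SE 0.612, adjusted p = 0.824).

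These counts moved most without 1 library. Without transgenic control replicate 1, the array that stood apart within its group, 7 of 9 probes passed and the count over all probes was 1398 instead of 336. The 7 were Mrc1 (1.15, adjusted p = 0.00437), Clec10a (−1.02, adjusted p = 0.036), Mgl2 (−0.93, adjusted p = 0.0316), the bright Il4ra probe (1.22, adjusted p = 0.0433), Il13ra1 (0.73, adjusted p = 0.0435) and both Tgm2 probes (−0.73 and −0.82, adjusted p = 0.0396 and 0.00389). Without transgenic control replicate 2, Mrc1 (1.56, adjusted p = 0.0256) and Mgl2 (−1.03, adjusted p = 0.0322) passed. Chil3 (−0.21, adjusted p = 0.825) and the dim Il4ra probe (0.23, adjusted p = 0.79) did not pass without replicate 1 either. All 9 differences kept their sign without that replicate. That library was one of 2 transgenic control arrays in slide column 4, where the scanner software applied a larger spatial correction (0.253 to 0.331 in root mean square, and 0.0964 to 0.126 in other columns). The remaining array in that column was the repeat array of transgenic tumour replicate 3. No wild-type array lay there, so the larger correction overlaps with genotype. Transgenic control replicate 1 also carried the highest neutrophil marker level. The part of either in these differences was not tested.

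**Figure D5:**
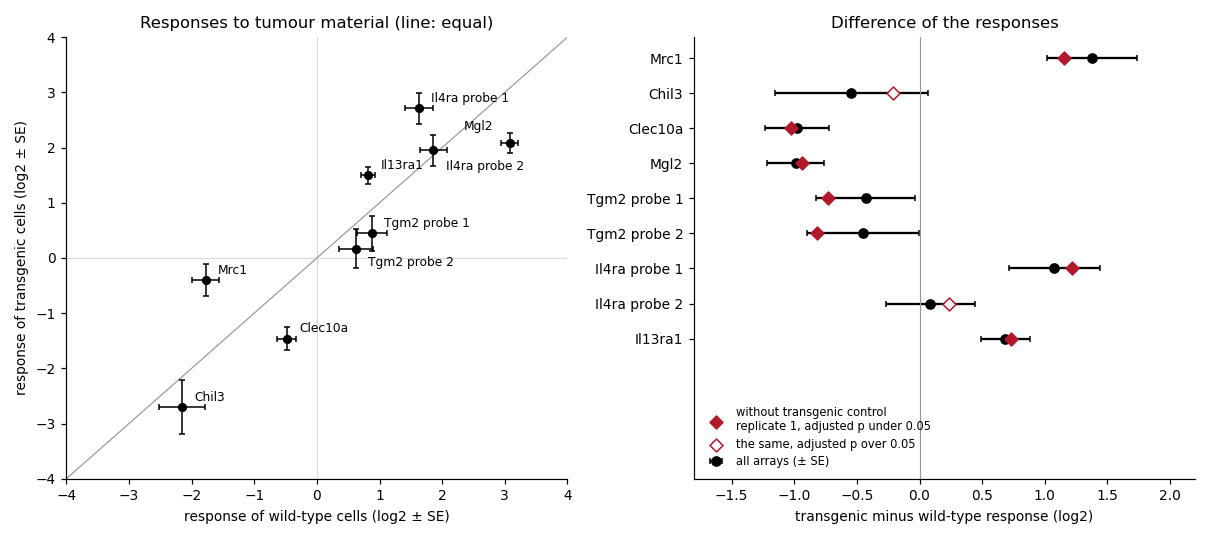
Left, response to tumour material of transgenic cells against that of wild-type cells for the 9 tested probes, in log2 units ± SE, with a line of equal responses; right, the difference of the responses, transgenic minus wild-type, on all arrays (black, ± SE) and without transgenic control replicate 1 (red diamonds). Il4ra and Mrc1 lie above the line and Mgl2 and Clec10a below it, and 7 of 9 diamonds are filled for an adjusted p under 0.05.

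Other genes that IL-4 induces in macrophages also split. Of 22 listed, 15 were tested, and 9 rose and 1 fell with tumour material in transgenic cells, while 9 rose and 3 fell in wild-type cells. Over all probes 14.9% were higher and 10.0% lower in transgenic cells, and 22.2% higher and 17.2% lower in wild-type cells. Their medians were 1.42 and 0.98, against 0.06 and 0.03 over all probes. Arg1, the arginase that marks alternative activation in mice, was below background in both control groups and rose at least 18.4-fold in transgenic and at least 663-fold in wild-type cells. Ccl17, a chemokine for T cells, rose at least 9.21-fold and at least 3.97-fold, and Slc7a2, an arginine transporter, at least 4.02-fold and at least 6.79-fold. Arg1, Ccl17 and Slc7a2 entered the test only through the groups with tumour material, where they are high, so their entry fixed their rise. They are in the counts and medians above. Pparg, the lipid-sensing nuclear receptor, fell by 2.39 in transgenic cells (adjusted p = 0.00444) and by 3.20 in wild-type cells (adjusted p = 4.63e-05) (a gene named after its values were seen). Pparg's call in transgenic cells was lost without transgenic control replicate 3 or transgenic tumour replicate 3 (adjusted p of up to 0.0752). Ccl22, Ccl24, Ppargc1b, Alox15, Cd209a and Cdh1 were above background on 0 of 14 arrays.

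Between genotypes, 2 of the 15 were higher and 3 lower in transgenic cells with tumour material, and 0 were higher and 5 lower in control medium, against 4.28% and 8.42% of all probes called in either direction. One of the 5 is Slc7a2, which lay below background in both control groups. With tumour material Arg1 (−5.65, SE 0.22, adjusted p = 7.19e-08) and Slc7a2 (−1.73, SE 0.25, adjusted p = 0.00247) were lower, and Egr2, a transcription factor of the IL-4 response, was higher (1.96, SE 0.37, adjusted p = 0.0106). Of the 5 calls with tumour material, Arg1's held when repeat arrays were averaged. Those of Slc7a2 (adjusted p = 0.0788), Egr2 (0.101), Kdm6b (0.0924) and Atp6v0d2 (0.169) did not. The calls of Slc7a2 and Egr2 were also lost without wild-type tumour replicate 3 or transgenic tumour replicate 3, with an adjusted p of up to 0.0876 and 0.213. In control medium Klf4 (−1.49, SE 0.21, adjusted p = 0.00154) and Il4i1 (−1.30, SE 0.19, adjusted p = 0.00181) were lower. Klf4, a partner of STAT6, rose in both genotypes with tumour material, by 2.15 in transgenic and 1.03 in wild-type cells.

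Close relatives of the members were mostly unmeasured: of 15 listed, 4 were tested. Chil1, a chitinase-like relative of Chil3, fell with it, with a fitted difference of −3.38 in transgenic cells (adjusted p = 0.000137), where 1 of 3 tumour arrays was above background, and at least 11.3-fold in wild-type cells (adjusted p = 2.08e-06). Chil1 entered the test only through the control groups, where it is high, which favours a fall. Tgm1, a relative of Tgm2, rose by 2.53 in wild-type cells (adjusted p = 5.61e-06). In transgenic cells its fitted difference was 3.18 (adjusted p = 1.72e-05), with 1 of 3 control arrays above background. F13a1, which encodes a clotting transglutaminase, fell in wild-type cells (−0.87, adjusted p = 0.0277), with 0.10 in transgenic cells (adjusted p = 0.873). That call was lost with repeat arrays averaged (adjusted p = 0.0936) and without any of wild-type control replicates 1 or 3, the 3 wild-type tumour replicates or transgenic tumour replicate 3 (adjusted p of up to 0.259). The relatives Chil4, Retnlb, Retn and Mrc2 were above background on 0 of 14 arrays.

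Genes of tissue-resident macrophages, many of which accompany Mrc1 and Cd163 in tissues, showed both directions. Of 7 tested, 0 rose and 2 fell in transgenic cells, and 3 rose and 3 fell in wild-type cells. Over all probes 10.0% were lower in transgenic cells, and 22.2% higher and 17.2% lower in wild-type cells. Gas6 fell by 2.44 in transgenic (adjusted p = 0.00015) and by 3.41 in wild-type cells (adjusted p = 6.35e-07), like Mrc1 in wild-type cells. Folr2, a folate receptor, rose in wild-type cells (2.63, adjusted p = 0.000731) and had 0.26 in transgenic cells (adjusted p = 0.797). Cbr2 was lower in transgenic than in wild-type cells with tumour material (−2.39, adjusted p = 0.00509), a call lost with repeat arrays averaged (adjusted p = 0.0658) and without wild-type tumour replicate 3 or transgenic tumour replicate 3 (adjusted p of up to 0.234). Of 6 glucocorticoid-induced genes, 0 rose and 2 fell in transgenic cells, and 2 rose and 3 fell in wild-type cells, counts to be read against the same shares of all probes. Zbtb16 fell at least 11.8-fold and at least 6.89-fold. It was above background only in control medium, so its entry to the test fixed this fall, which is in the counts.

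Markers of further cell types were few. Of 2 measured dendritic cell markers, Ccr7 rose by 1.40 in transgenic and 1.66 in wild-type cells, while Itgax fell by 1.94 and by 1.45, and the defining markers Flt3, Zbtb46 and Xcr1 were above background on 0 of 14 arrays. Of 3 measured eosinophil and mast cell markers, Prg2 fell by 1.77 in transgenic and by 0.98 in wild-type cells, and Siglecf by 0.97 in wild-type cells. Siglecf was above background on 2 of 4 wild-type tumour arrays, so the size of its fall is uncertain. Cpa3 was not called. It averaged −0.29 with tumour material and −1.41 in control medium in transgenic cells, and −1.14 and −1.11 in wild-type cells. Of 2 measured T and B cell markers, Cd4 fell in transgenic cells (−1.67, adjusted p = 0.0121). Cd3e was not called there, with means of 1.41 with tumour material and 1.22 in control medium. Ms4a1 was above background on 0 of 14 arrays. With repeat arrays averaged, Ccr7 (adjusted p = 0.147) and Cd4 (0.0619) did not pass in transgenic cells. Of these calls, Ccr7 in transgenic cells (adjusted p of up to 0.187) was lost without wild-type or transgenic tumour replicate 3, and Cd4 (0.123) without transgenic control or tumour replicate 3. In wild-type cells Prg2 (0.0866) was lost without control replicate 3 and Siglecf (0.0801) without tumour replicate 3.

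The members did not form 1 profile over the 11 replicates. Mgl2 correlated with Mrc1 at r = −0.866 and with Chil3 at −0.885, and Clec10a with Il4ra at −0.921 and with Il13ra1 at −0.922, while Mrc1 and Chil3 correlated at 0.568. These values are descriptions over 4 groups, and the points share medium, genotype and slide. Among named genes, those most like Il4ra were Eva1b, Socs3 and Il1b (r from 0.988 to 0.992), and those most like Il13ra1 were Pla2g4a, Arl6ip6 and Eya1 (0.99 to 0.991). Clec10a was followed most closely by Fanci, Zwilch and Ncapd2 (0.97 to 0.972), Mgl2 by Dazap1, Zfp281 and Taf3 (0.985 to 0.991), Mrc1 by Calhm2, Pros1 and Elovl5 (0.974 to 0.979), and Tgm2 by Srsf3, Rapgef5 and Cpeb2 (0.97 to 0.98).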

How the data were processed

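RNA from 11 cultures was read on 14 one-colour Agilent arrays. Agilent Feature Extraction 10.7.3.1 read the images, per the submitters' processing notes. The deposited spot intensity is background-subtracted and spatially detrended, per the file headers. The deposited series matrix holds log2 values; its sorted columns differ by at most 0.0015, its median is 2.84, and it correlates with the log2 scanner intensity at 0.9987 or more on every array. The sources used here do not say how the authors filtered probes.

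Control spots and 166 to 270 uneven or outlying spots per array were left out, and spots of a probe were averaged. Signals were divided by the array's 75th percentile and logged. Probes were named by matching accessions to a RefSeq table. Of 55634 probes, 20199 were tested, those that some group had well above background throughout. Limma 3.58.1 in R 4.3.3 fitted a mean for each of the 4 groups plus slide, treated repeat arrays as a random block (correlation 0.058) and adjusted over all tested probes at a threshold of 0.05. With so few arrays SDs are rough. The test was checked on simulated data.

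Against a group with 0 arrays above background only a minimum fold is given; its denominator averages, over that group's arrays, the larger of the probe's signal and the weakest signal the scanner marked as well above background. Besides the members, the text names up to 3 called genes per list and contrast, every IL-4 receptor signalling gene, and the 3 genes most correlated with a member; each gene of a list is read by its brightest probe. Members and lists were chosen with earlier results of these data known. Alternatives were normexp background correction (on the median signal, with an offset of 50), quantile normalization, the deposited matrix, no filter on dim probes, the brightest probe per gene, averaged repeat arrays, no slide term, single slides, slide column 4 as a term or left out, a replicate block, and leaving out each replicate.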

Additional observations from a re-analysis of the deposited data

Results flagged for a closer look

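Among the 9 members 0 responses differed between genotypes on all arrays. Among the listed genes around them, 3 had a response to tumour material that differed between transgenic and wild-type cells in the test of that difference. Arg1 had a fitted difference of −5.71 log2 units (adjusted p = 1.5e-06), but both control groups lay below background, so its size is not measured and it restates the genotype difference with tumour material (−5.65). Egr2 had a difference of 2.09 (adjusted p = 0.0491), which was lost when repeat arrays were averaged (adjusted p = 0.166) and without any of 9 single replicates, all but transgenic control replicates 1 and 2. Tsc22d3, a glucocorticoid-induced gene, had 1.28 (adjusted p = 0.03), lost when repeat arrays were averaged (adjusted p = 0.248) and without any of 6 single replicates: wild-type control replicates 1 and 2, wild-type tumour replicates 1 and 3, and transgenic tumour replicates 2 and 3. Tsc22d3 fell in wild-type cells (−1.10, adjusted p = 0.000187) and had 0.18 in transgenic cells (adjusted p = 0.575).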

How the results depend on the processing

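Of the 9 tested probes, 6 to 7 passed with tumour material in transgenic cells and 6 to 9 in wild-type cells when single replicates were left out. The transgene gave 0 to 3 calls with tumour material and 3 to 4 in control medium, and the difference of responses gave 0 to 7. Within slide 2, where repeat arrays were averaged and 1 residual degree of freedom was left, 2 probes passed with tumour material in wild-type cells and 0 for the transgene in control medium. Without a slide term, 2 probes passed for the transgene with tumour material and 1 for the difference of responses, and without slide column 4 those counts were 3 and 4. With the replicate number as a block, 6 probes passed with tumour material in transgenic and 8 in wild-type cells, 0 and 3 for the transgene with tumour material and in control medium, and 0 for the difference of responses. Same-numbered samples of different groups deviated from their group means with correlations of −0.218 to 0.189, and differently numbered ones with −0.219 to 0.222. These values gave no sign of pairing by number, but with 2 or 3 replicates per group they cannot exclude it.

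Over all alternatives 929 member values kept their direction and their side of the threshold, 38 lost the call, 31 gained it and 0 reversed. Among list genes 6639 were kept, 286 lost, 129 gained and 2 reversed: without transgenic control replicate 1 the transgene's difference in control medium was −0.85 for Ngp and −1.16 for Camp, against 0.15 and 0.35 with it and up to 0.76 and 1.18 when other single replicates were left out. Of 4984 values past the threshold under neither setting, 388 changed sign. Counts over all probes moved more: from 2299 to 6633 and from 1336 to 10020 with tumour material in transgenic and wild-type cells (5040 and 7948 on all arrays), 0 to 2556 and 0 to 3324 for the transgene with tumour material and in control medium (865 and 1700), and 0 to 1398 for the difference of responses (336). With repeat arrays averaged, the counts over all probes were 176 for the transgene with tumour material, 1397 for it in control medium and 77 for the difference of responses, with 3282 and 6721 for tumour material in transgenic and wild-type cells. With slide column 4 as a term, the transgene gave 496 calls over all probes with tumour material and 696 in control medium. With that column left out, these counts were 1912 and 1757. The lowest counts came within slide 2 and the highest without transgenic control replicate 1. The cause of these changes was not tested. Signal limits what can be said of Retnla, Cd163 and the dim Il4ra probe.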
